A study of Mus musculus with 8 samples.

Results

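The natriuretic peptide system was followed in mouse hearts after digoxin through 8 genes, chosen by name from the genes of the peptides, of the proteases that process them and of their receptors. They are Nppa, Nppb and Nppc for the peptides, Corin and Furin for the proteases, and Npr1, Npr2 and Npr3 for the receptors. All 8 were measured, among 22180 genes with a probe set annotated to exactly 1 symbol, and no filter on low values was applied. Npr1 had 2 probe sets and each of the others had 1.

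The digoxin group held 5 heart samples of mice injected intraperitoneally with 1 mg/kg of digoxin, and the vehicle group 3 heart samples of mice injected with the solvent alone. The solvent held propylene glycol at 40%, ethanol at 10%, sodium phosphate at 0.3% and citric acid at 0.08%. Digoxin is a cardiac glycoside, a blocker of the sodium pump of cell membranes. All were wild-type males of 8 to 10 weeks, labelled C57BL6JRj and bought as C57BL6/J, injected at ZT5 and killed at ZT9, where ZT0 is lights-on in a cycle of 12 h light and 12 h dark. No disease or cardiac strain was induced, as far as the labels say, so the comparison concerns the hours after 1 dose. Each sample was read on 1 array of the type Affymetrix Mouse Gene 2.0 ST. The labels number the samples without saying that each came from its own mouse, and a heart below means 1 such sample. The design text counts 4 vehicle samples, while the series holds 3, and all 3 were analysed here. The array numbers in the description labels are lower for all vehicle arrays than for all digoxin arrays, and what they order is not stated, so an effect of that order and one of digoxin cannot be told apart. Nothing in the labels says whether a chamber was left out of the tissue, and the level of a marker cannot be checked, because each probe set was centred in the deposited log2 data. A value therefore tells how an array stands relative to the other arrays for the same gene, and values of different genes cannot be ranked as levels.

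Atrial natriuretic peptide, the product of Nppa, is made and stored mainly by atrial cardiomyocytes in the adult heart, and brain natriuretic peptide, the product of Nppb, is induced in the ventricle by wall stress. Both act through the guanylyl cyclase receptor encoded by Npr1, raise cyclic GMP, and promote sodium excretion and vasodilation. C-type natriuretic peptide, from Nppc, is largely an endothelial peptide and acts through the guanylyl cyclase encoded by Npr2. The receptor encoded by Npr3 binds and clears all of these peptides. Corin, a membrane serine protease of cardiomyocytes, converts pro-atrial natriuretic peptide to its active form, and furin, a proprotein convertase of the secretory pathway, cleaves the precursors of the other peptides.

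Nppa and Nppb are neighbours on chromosome 4. In the GRCm38.p6 annotation of RefSeq, Nppb spans chr4:147985786-147987205 and Nppa chr4:148000722-148002074, with 13516 bases between them, while Nppc lies at chr1:86666293-86670573. The 250 bases upstream of 1 annotated start site of each ligand gene, that of the RefSeq promoter table, are shown because motifs of cardiac transcription factors stand there in the neighbours and not in the third ligand gene, and genes of such factors were measured on the same arrays. Capitals mark the searched letters on either strand, which were GATAA for GATA factors, TCACACC for T-box factors, TNAAGTG for NK2 homeobox factors and TATAAA for the TATA box. The windows are chr4:148000472-148000721 on the plus strand for Nppa, chr4:147985650-147985899 on the plus strand for Nppb and chr1:86670574-86670823 on the minus strand for Nppc. For Nppa and Nppc that site is the outer end of the gene span. For Nppb it is position 147985900, inside the span, so the last 114 bases of the Nppb window lie within the gene as annotated, which has more than 1 transcript.
Nppa: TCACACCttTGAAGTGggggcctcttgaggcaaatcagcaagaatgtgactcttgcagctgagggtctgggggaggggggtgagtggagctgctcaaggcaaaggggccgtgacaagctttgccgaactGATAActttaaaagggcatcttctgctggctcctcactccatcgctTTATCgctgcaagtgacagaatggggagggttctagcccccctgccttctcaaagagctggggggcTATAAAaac
Nppb: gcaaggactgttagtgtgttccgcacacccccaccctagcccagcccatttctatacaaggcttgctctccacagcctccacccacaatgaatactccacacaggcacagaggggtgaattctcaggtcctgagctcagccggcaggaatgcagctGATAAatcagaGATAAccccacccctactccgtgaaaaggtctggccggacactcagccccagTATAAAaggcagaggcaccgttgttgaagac
Nppc: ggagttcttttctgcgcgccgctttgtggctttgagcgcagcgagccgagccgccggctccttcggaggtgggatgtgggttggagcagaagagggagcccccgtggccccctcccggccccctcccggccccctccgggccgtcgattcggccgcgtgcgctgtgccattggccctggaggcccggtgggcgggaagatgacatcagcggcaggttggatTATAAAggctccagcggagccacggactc

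The Nppa window held 2 GATA motifs, and the Nppb window also held 2. At least 1 such motif was present in 22.6% of the 32851 windows of the same length in the RefSeq promoter table, and 2 or more in 4.28%. In Nppa they began 121 and 75 bases before the start site. In Nppb they began 94 and 83 bases before the site used for the window, and so inside the annotated gene span, as did the TATA box. The Nppa window also held 1 T-box motif, as did 3.33% of all windows, and 1 NK2 homeobox motif, as did 10.1%. None of these was found in the Nppc window. A TATA box stood in all 3 windows and in 12.4% of all windows. No match overlapped another. A match describes these letters and does not show that a factor binds there.

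None of the 8 genes passed the test between digoxin and vehicle hearts. In limma, with Benjamini-Hochberg adjustment over all genes tested and a threshold of 0.05, 302 of 22180 genes passed, 1.36% of them, and 0 of the 8. Of all genes 0.947% passed with a higher and 0.415% with a lower value in digoxin hearts. An unadjusted p under 0.05 was seen in 2 of the 8, where 12.3% of all genes had one. These were Furin, higher in digoxin hearts (6.32% of all genes), and Nppb, lower (5.99%). The groups did not overlap in 1 of the 8, Furin, where digoxin was higher, beside 8.16% of all genes, 4.4% with digoxin higher and 3.76% with digoxin lower. Means were lower in digoxin hearts for 6 of the 8, beside 12328 of all 22180 genes. The median log2 change was -0.10, beside -0.01 over all genes. The count over all genes depended on single arrays. It was 170 without digoxin replicate 2, 174 without digoxin replicate 3, 166 without digoxin replicate 5, and leaving out vehicle replicate 2 gave 169. The array of vehicle replicate 3 had an interquartile range of 0.216 over all probe sets, against 0.0792 to 0.115 for the other 7 arrays. Without it the count was 374, with 185 genes higher and 189 lower in digoxin hearts, against 210 higher and 92 lower with all arrays, and still 0 of the 8 passed. With array weights 294 were higher and 320 lower.

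**Figure D1:**
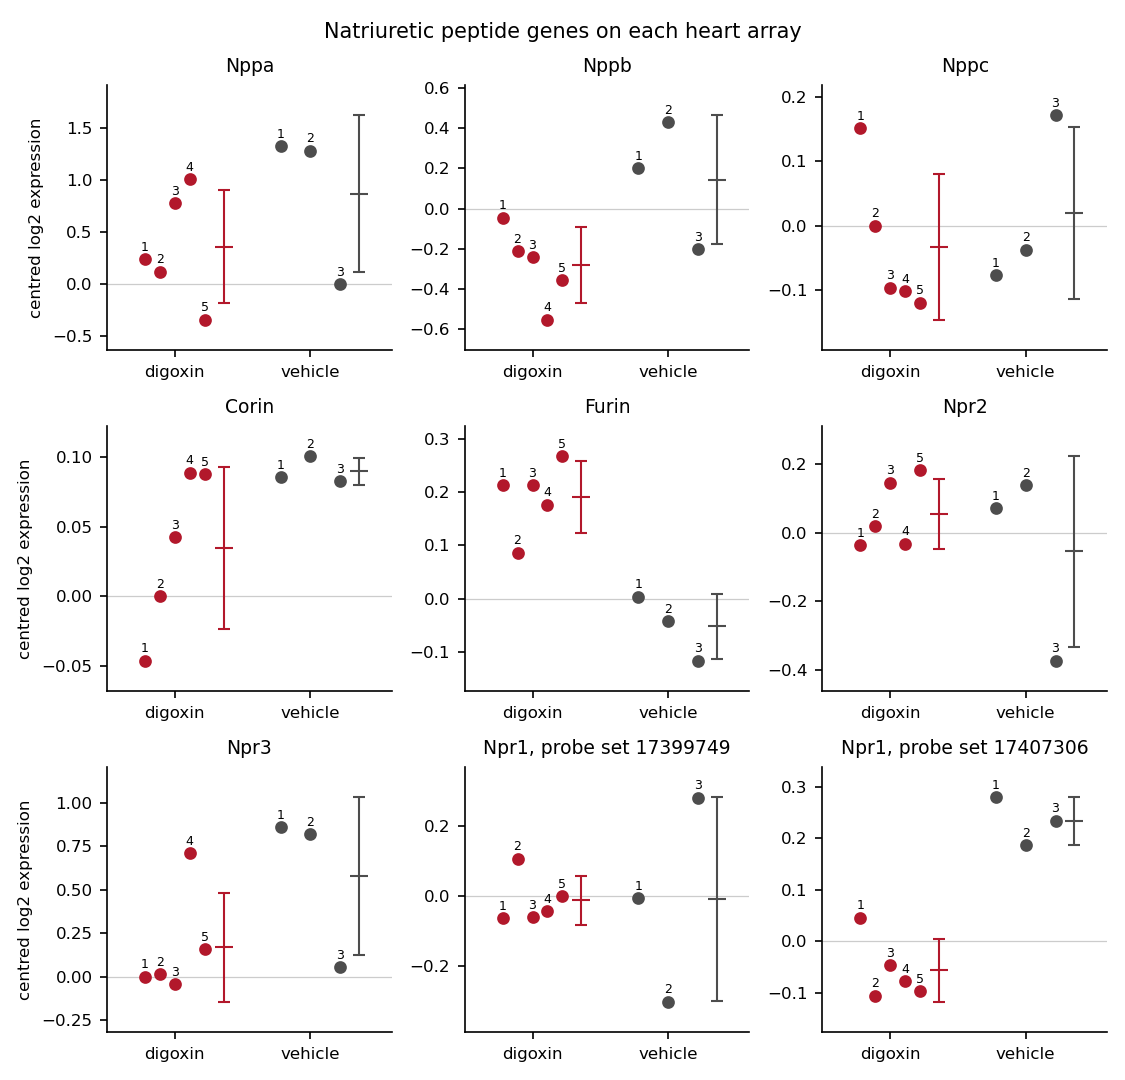
Centred log2 expression of the 7 genes with 1 probe set and of the 2 probe sets of Npr1 on each array, with digoxin arrays in red at the left of each panel and vehicle arrays in grey at the right. Numbers are replicate numbers, and bars show the mean ± SD (n = 5 and n = 3). The groups are separate in Furin and in Npr1 probe set 17407306 and overlap in the other panels.

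Nppa varied more between hearts than nearly all other genes. Its centred log2 value was 0.24, 0.12, 0.78, 1.01 and -0.35 in digoxin replicates 1 to 5, against 1.33, 1.28 and 0.00 in vehicle replicates 1 to 3. The groups overlap widely, with 2 vehicle hearts above every digoxin heart and the third below 4 of them. Digoxin hearts averaged 0.36 ± 0.54 and vehicle hearts 0.87 ± 0.76 (SD, n = 5 and n = 3). The log2 change of -0.51 had an SE of 0.38 and a 95% interval of -1.37 to 0.35, with an adjusted p of 0.629 in limma and an exact two-sided permutation p of 0.268. The interval spans both directions. The range over the 8 arrays was 1.68 on the log2 scale, and 0.234% of the genes tested had a wider one.

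The mean of genes known from atrial cardiomyocytes moved with Nppa from heart to heart, while single genes did so to differing degrees. The mean over 12 atrial marker genes, Nppa not among them, was 0.21, -0.23, 0.70, 1.16 and -0.26 in digoxin replicates 1 to 5, against 1.75, 1.35 and 0.14 in vehicle replicates 1 to 3. Within each group the arrays stand in the same order for Nppa as for this mean, but not for every marker in it. Bmp10, the marker of widest range, was 5.18, -0.25 and 1.73 in vehicle replicates 1 to 3. The order of vehicle replicates 1 and 2 in the mean rests on this gene. Gja5 and Kcnj3 were higher on digoxin replicate 5, where Nppa was lowest, than on digoxin replicate 1. All 12 markers had lower means in digoxin hearts and 0 of 12 passed the test in limma (1, Gja5, at an unadjusted p under 0.05), with log2 changes between -1.47 and -0.15. Over the 8 arrays Pearson's r between Nppa and the marker mean was 0.97 (exact permutation p = 0.000471, adjusted 0.00377 over the 8 genes) and Spearman's rho was 0.98 (exact permutation p = 0.000397, adjusted 0.00317). Pearson's r was 0.94 without vehicle replicates 1 and 2, the arrays farthest from the median of the marker mean. In bulk tissue, fewer atrial cells and less RNA per atrial cell cannot be told apart.

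The gene whose pattern over the 8 arrays was most like that of Nppa, among 17359 searched by Pearson correlation, was Sln (r = 0.98), the gene of sarcolipin, an atrial inhibitor of the sarcoplasmic reticulum calcium pump. Sln is itself one of the 12 markers. The next were Sbk3 (r = 0.98) and Bst2 (r = 0.97). With the atrial mean fitted as a covariate in the limma fit, the log2 change of Nppa was 0.14 (SE 0.13, adjusted p = 0.55), so that its sign turned. Nppa is itself an atrial gene, and the covariate was measured on the same arrays after the injection. This fit therefore cannot tell the share of atrial tissue from the RNA per atrial cell. The part of atrial tissue in the difference between the groups was not tested.

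**Figure D2:**
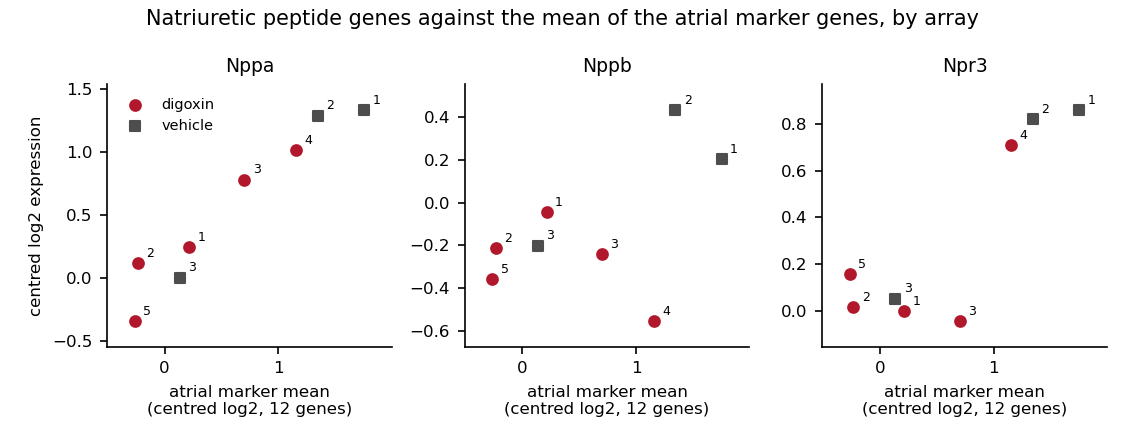
Centred log2 expression of Nppa, Nppb and Npr3 against the mean of the 12 atrial marker genes on the same array, with digoxin arrays as red circles and vehicle arrays as grey squares, numbered by replicate. Nppa climbs with the marker mean across both groups (r = 0.97), Nppb does not follow it in the digoxin arrays, and Npr3 is high on 3 arrays and low on 5.

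Nppb, the ligand gene that responds to ventricular load, had a lower mean in digoxin hearts. Its value was -0.04, -0.21, -0.24, -0.55 and -0.36 in digoxin replicates 1 to 5, against 0.20, 0.43 and -0.20 in vehicle replicates 1 to 3. All 5 digoxin hearts lay below vehicle replicates 1 and 2, and 4 of them below vehicle replicate 3. Digoxin hearts averaged -0.28 ± 0.19 and vehicle hearts 0.14 ± 0.32 (SD, n = 5 and n = 3), so that the vehicle level was 1.34 times the digoxin level. The log2 change of -0.43 (SE 0.15, 95% interval -0.77 to -0.09) had a p of 0.0196 in limma before adjustment and 0.284 after it (adjusted p), and the exact permutation p was 0.0357.

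The call for Nppb depended on how single arrays were weighted or left out. Nppb passed when arrays were weighted by their fit, where that array weighed least (log2 change -0.58, adjusted p = 0.0313 in limma). It also passed without digoxin replicate 4 and vehicle replicate 3 together (-0.53, adjusted p = 0.0445), but not without vehicle replicate 3 alone (-0.60, adjusted p = 0.0694). The change was closer to 0 without vehicle replicate 2 (-0.28, adjusted p = 0.453) and with the replicate number as a block (-0.31, adjusted p = 0.642). Nppb and the atrial genes were ordered differently among the digoxin hearts. Digoxin replicate 4 had the highest atrial marker mean of the digoxin hearts and the lowest Nppb of all 8, and with the atrial mean fitted the log2 change was -0.37 (adjusted p = 0.273). Pearson's r with the marker mean was 0.49 (exact permutation p = 0.219, adjusted 0.506) and Spearman's rho 0.48 (exact permutation p = 0.243, adjusted 0.523), and r was -0.52 without vehicle replicates 1 and 2. The genes most like Nppb over the 8 arrays were Ccnd2 (r = 0.98), a cyclin of the G1 phase, Plk2 (r = 0.96), a polo-like kinase, and Synpo2l (r = 0.96), a Z-disc protein gene.

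The group means of Nppc differed by less than the SD within either group. Its value was 0.15, 0.00, -0.10, -0.10 and -0.12 in digoxin replicates 1 to 5, against -0.08, -0.04 and 0.17 in vehicle replicates 1 to 3. The groups cover about the same span. The log2 change was -0.05 with a 95% interval of -0.24 to 0.13 and an adjusted p of 0.835 in limma. Its sign turned without vehicle replicate 3, where it was 0.02. Nearest to it in pattern were Ins2, Ptchd4 and Myh13 (r between 0.97 and 0.98).

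Among the proteases, Furin, at chr7:80389194-80405441 in GRCm38.p6, had the smallest p of the 8 genes. Its value was 0.21, 0.09, 0.21, 0.18 and 0.27 in digoxin replicates 1 to 5, against 0.00, -0.04 and -0.12 in vehicle replicates 1 to 3. Every digoxin heart was above every vehicle heart. Digoxin hearts averaged 0.19 ± 0.07 and vehicle hearts -0.05 ± 0.06 (SD, n = 5 and n = 3), a digoxin level of 1.18 times that of vehicle. The log2 change of 0.24 (SE 0.05, 95% interval 0.12 to 0.36) had a p of 0.00127 in limma before adjustment and an adjusted p of 0.0702, just short of the threshold. The exact permutation p was 0.0179, the smallest that 56 assignments of the arrays can give.

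The size of the difference in Furin hardly moved when arrays were left out. With 1 array left out the log2 change lay between 0.21 and 0.27 and the adjusted p between 0.0683 and 0.173. With the atrial mean fitted as a covariate it was 0.27 (adjusted p = 0.0662). The adjusted p in limma was 0.188 with a trended and robust variance model and 0.523 with the replicate number as a block. Nearest to Furin in pattern over the 8 arrays were Lvrn (r = 0.98), an aminopeptidase gene that passed the test with a log2 change of 0.60 (adjusted p = 0.00988), Mrap (r = 0.97), which encodes the accessory protein of the ACTH receptor and stood at 0.32 (adjusted p = 0.0508), and Kctd18 (r = 0.97), which passed at 0.27 (adjusted p = 0.0392).

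Corin, at chr5:72299948-72504540, was at nearly the same value on most arrays. It read -0.05, 0.00, 0.04, 0.09 and 0.09 in digoxin replicates 1 to 5, against 0.09, 0.10 and 0.08 in vehicle replicates 1 to 3. The vehicle hearts were close together and 3 of the 5 digoxin hearts lay below them. The log2 change was -0.06 (SE 0.04, 95% interval -0.16 to 0.05, adjusted p = 0.66 in limma). Its range over the 8 arrays was 0.147, narrower than in 87.4% of genes. Its nearest patterns were those of Mypop, Shc1 and Zfp780b (r = 0.97 for each).

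**Figure D3:**
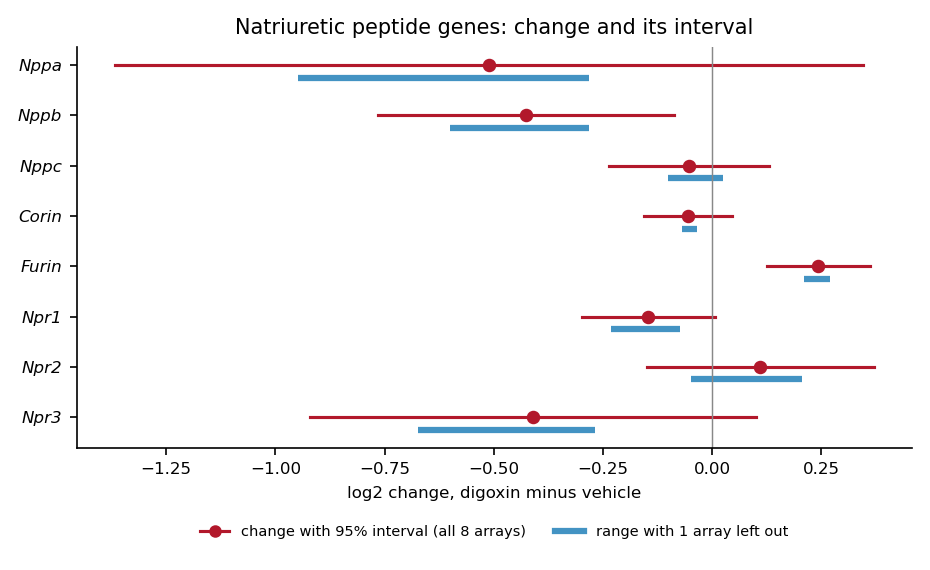
Log2 change of each gene, digoxin minus vehicle, as a red point with its 95% interval from the limma fit, and as a blue bar the range of the change when each of the 8 arrays was left out in turn. The interval lies above 0 for Furin and below 0 for Nppb, and it is widest for Nppa.

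The receptor gene Npr1, at chr3:90450591-90465928, gave a different answer from each of its 2 probe sets. Probe set 17407306 read 0.05, -0.11, -0.05, -0.08 and -0.10 in digoxin replicates 1 to 5, against 0.28, 0.19 and 0.23 in vehicle replicates 1 to 3, with every digoxin heart below every vehicle heart. Probe set 17399749 read -0.06, 0.11, -0.06, -0.04 and 0.00 in digoxin hearts, against -0.01, -0.30 and 0.28 in vehicle hearts, with the digoxin values inside the vehicle range. The log2 change was -0.29 (SE 0.05, adjusted p = 0.0292 in limma over 23521 probe sets) for probe set 17407306. It was -0.00 (SE 0.11, 95% interval -0.26 to 0.25, adjusted p = 0.994) for probe set 17399749. Of all probe sets, 1.31% passed in such a fit, and 0.4% with a lower value in digoxin hearts.

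The call of probe set 17407306 did not hold in 6 of the 8 fits that left out 1 array. The adjusted p in limma was 0.0856 without digoxin replicate 2, 0.0828 without 3, 0.0692 without 4, 0.0843 without 5, 0.0793 without vehicle replicate 1 and 0.0645 without vehicle replicate 2, while its log2 change stayed between -0.31 and -0.27. As the mean over both probe sets, Npr1 averaged -0.03 ± 0.03 in digoxin and 0.11 ± 0.16 in vehicle hearts (SD, n = 5 and n = 3). The log2 change was -0.15 (SE 0.07, 95% interval -0.30 to 0.01) with an adjusted p of 0.426 in limma. The files do not say which transcripts each probe set reads. The genes most like the Npr1 mean were Hilpda, Mageb3 and Camkv (r = 0.97 for each).

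The difference in Npr2, the receptor gene of the C-type peptide at chr4:43629015-43651437, was set by vehicle replicate 3. Its value was -0.04, 0.02, 0.15, -0.03 and 0.18 in digoxin replicates 1 to 5, against 0.07, 0.14 and -0.37 in vehicle replicates 1 to 3. The other vehicle values lie within the range of the digoxin hearts. The log2 change was 0.11 (SE 0.11, 95% interval -0.15 to 0.37, adjusted p = 0.743 in limma) with all arrays and -0.05 without vehicle replicate 3. The genes most like it were Wdr47, Tpp1 and Srprb (r between 0.98 and 0.99).

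Npr3, the clearance receptor gene at chr15:11839896-11907837, was high on 3 arrays and low on 5. Its value was 0.00, 0.02, -0.04, 0.71 and 0.16 in digoxin replicates 1 to 5, against 0.86, 0.82 and 0.05 in vehicle replicates 1 to 3. Digoxin replicate 4 and vehicle replicates 1 and 2 stood apart from the rest, so both groups hold high and low hearts. Digoxin hearts averaged 0.17 ± 0.31 and vehicle hearts 0.58 ± 0.46 (SD, n = 5 and n = 3). The log2 change was -0.41 (SE 0.22, 95% interval -0.92 to 0.10, adjusted p = 0.51 in limma, exact permutation p = 0.196). Pearson's r with the atrial marker mean was 0.86 (exact permutation p = 0.0135, adjusted 0.0539), and 0.63 without vehicle replicates 1 and 2. Spearman's rho was 0.55 (exact permutation p = 0.171, adjusted 0.523). Because the arrays fall into separate sets, this r mainly reflects the gap between the high and the low arrays.

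The 3 arrays high in Npr3 were also the 3 with the highest atrial marker means, while digoxin replicate 3, at 0.70 for the atrial mean, was low in Npr3. The mean over 6 epicardial markers was 0.48 on digoxin replicate 4, against 0.28 and 0.24 on vehicle replicates 1 and 2, and the other 5 arrays lay between -0.09 and 0.14. Upk3b, Upk1b and Lrrn4 were each higher on these 3 arrays than on the others, while Msln, Wt1 and Krt19 were not. The mean over 8 endocardial markers was 0.41 on digoxin replicate 4, against 0.30 and 0.18 on vehicle replicates 1 and 2, and between -0.04 and 0.19 on the other 5. Among them Plvap, an endothelial gene named after its values were seen, was 0.52 on digoxin replicate 4. It was 0.72 and 0.70 on vehicle replicates 1 and 2, and between -0.36 and 0.09 on the others. Vwf and Tmem108 were also higher on these 3 arrays than on the others, while Bmp6, Adgrg6, Cytl1, Hapln1 and Nfatc1 were not. The mean over 9 macrophage markers was 0.19 on digoxin replicate 4, against 0.17 and 0.19 on vehicle replicates 1 and 2. On the other 5 arrays it lay between -0.17 and 0.05. Adgre1, Csf1r, Cd68 and C1qb were each higher on these 3 arrays than on the others, while Cd163, Fcgr1, Mrc1, C1qa and C1qc were not. With the atrial mean fitted as a covariate the log2 change of Npr3 was -0.09 (adjusted p = 0.806 in limma). Without digoxin replicate 4 and vehicle replicate 3, which are the highest digoxin and the lowest vehicle value of this gene, it was -0.81 (adjusted p = 0.00261). Leaving out these values widens the difference by the choice of arrays, so that adjusted p is no test of it. The part of these cell types in the values of Npr3 was not tested. The genes most like Npr3 were Disp1 (r = 0.99), Fbln1 (r = 0.98), an extracellular matrix gene, and Ptpn14 (r = 0.98). These r values too mainly reflect the gap between the arrays high and low in Npr3.

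The factors whose motifs stand in the Nppa and Nppb windows belong to a list of 23 measured regulators of natriuretic peptide genes. None of the 23 passed the test in limma. Means were lower in digoxin hearts for 18 of them, beside 12328 of all 22180 genes. The median log2 change was -0.05, beside -0.01 over all genes. An unadjusted p under 0.05 was seen in 10 of the 23, and 7 had groups without overlap, beside 12.3% and 8.16% of all genes. The list was chosen with earlier results of these data known. The regulators of smallest p were Klf13, a Kruppel-like factor (log2 change 0.43, SE 0.09, adjusted p = 0.0802), and Nr3c1, the glucocorticoid receptor gene (-0.27, SE 0.06, adjusted p = 0.10). Of the fits that left out 1 array, Klf13 passed only in that without digoxin replicate 1 (adjusted p = 0.0432 in limma). Nr3c1 passed only in that without digoxin replicate 2 (0.041).

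The list holds 7 genes of the motifs' factor families, Gata4, Gata6, Tbx2, Tbx3, Tbx5, Tbx20 and Nkx2-5, which are all described here, although they were named after their values were seen. Gata4, a zinc finger activator of both neighbours, was -0.14, -0.22, -0.04, -0.39 and -0.24 in digoxin replicates 1 to 5, against 0.12, 0.05 and 0.06 in vehicle replicates 1 to 3. All digoxin hearts were below all vehicle hearts. Its log2 change was -0.28 (SE 0.07, adjusted p = 0.139 in limma). Tbx20, a cardiac T-box factor gene, was -0.01, -0.11, -0.22, -0.25 and -0.28 in digoxin hearts, against 0.31, 0.13 and 0.01 in vehicle hearts, again without overlap (log2 change -0.32, SE 0.08, adjusted p = 0.136). Tbx5, a T-box activator of Nppa that is also among the atrial markers, stood at -0.29 (adjusted p = 0.58) with groups that overlap. Gata6 stood at -0.22 (adjusted p = 0.322). Its groups did not overlap but nearly met, with digoxin replicate 5 at -0.0021 and vehicle replicate 2 at 0.00. Vehicle replicate 1 was its highest array at 0.40. The T-box repressor genes stood at -0.07 (Tbx2, adjusted p = 0.793) and -0.03 (Tbx3, adjusted p = 0.942), both with overlap. The NK2 homeobox gene Nkx2-5 stood at -0.19 (adjusted p = 0.475), also with overlap.

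**Figure D4:**
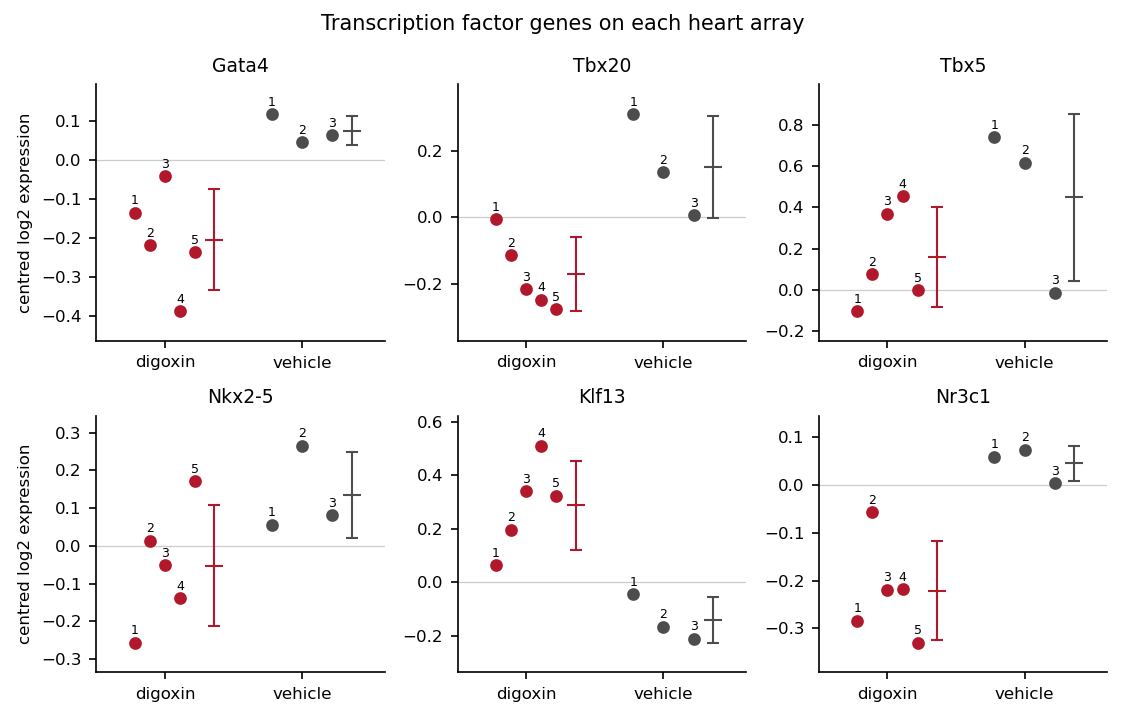
Centred log2 expression of 6 transcription factor genes on each array, with digoxin arrays in red at the left and vehicle arrays in grey at the right, numbered by replicate, and bars at the mean ± SD (n = 5 and n = 3). The groups are separate for Gata4, Tbx20, Klf13 and Nr3c1 and overlap for Tbx5 and Nkx2-5.

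The rest of the pathway was measured in 6 further lists. Together with the regulators these lists held 84 genes, of which 80 were measured, and 0 of the 80 passed the test in limma, where 1.36% of all genes did. An unadjusted p under 0.05 was seen in 19 of the 80, beside 12.3% of all genes. The median log2 change of the 80 was -0.03, beside -0.01 over all genes, of which 12328 of 22180 had lower means in digoxin hearts. In the load and fetal gene list, which holds genes often raised together with Nppb in a strained ventricle, 9 of 12 means were lower in digoxin hearts (median -0.04). Ankrd1, a stretch-responsive sarcomere protein gene, stood at -0.16 (adjusted p = 0.401) and Rcan1, a calcineurin target, at 0.12 (adjusted p = 0.571).

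Of 7 genes of peptide degradation and clearance, 4 means were higher (median 0.07). Mme, which encodes neprilysin, the main protease that degrades these peptides, stood at 0.28 (SE 0.11, unadjusted p = 0.0281, adjusted p = 0.331 in limma). Its value was 0.25, 0.23, 0.09, -0.00 and 0.42 in digoxin replicates 1 to 5, against -0.02, 0.05 and -0.27 in vehicle replicates 1 to 3, and only digoxin replicate 4 lay within the vehicle range. Mep1b, a meprin subunit gene, stood at -0.09. Among 6 measured convertases related to furin, 5 means were higher (median 0.05), with Mbtps1, the site-1 protease gene, at 0.16 and Pcsk4 at -0.14.

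Of 9 other guanylyl cyclase genes, 7 means were lower (median -0.06). Gucy2c, the cyclase receptor of guanylin in the gut, stood at -0.14 (adjusted p = 0.494), and Gucy1b1, a subunit of the nitric oxide-sensitive cyclase, also at -0.14 (0.451). The gene of its partner subunit, Gucy1a1, named after its values were seen, passed without vehicle replicate 3 (log2 change -0.46, adjusted p = 0.0113 in limma) but not with all arrays (-0.23, adjusted p = 0.581).

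Of 11 cGMP phosphodiesterase genes, 5 means were higher (median -0.01). Pde2a, whose enzyme is stimulated by cGMP, stood at 0.16 (adjusted p = 0.334) and Pde9a, whose enzyme is selective for cGMP, at -0.15 (0.345). In the list of 12 cGMP effectors 5 had an unadjusted p under 0.05, beside 12.3% of all genes (median -0.03). Vasp, a cytoskeletal substrate of the cGMP-dependent kinase, stood at -0.29 (SE 0.07, adjusted p = 0.105 in limma) with groups that did not overlap. Mrvi1, which encodes the kinase substrate IRAG, stood at -0.22 (adjusted p = 0.234).

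**Figure D5:**
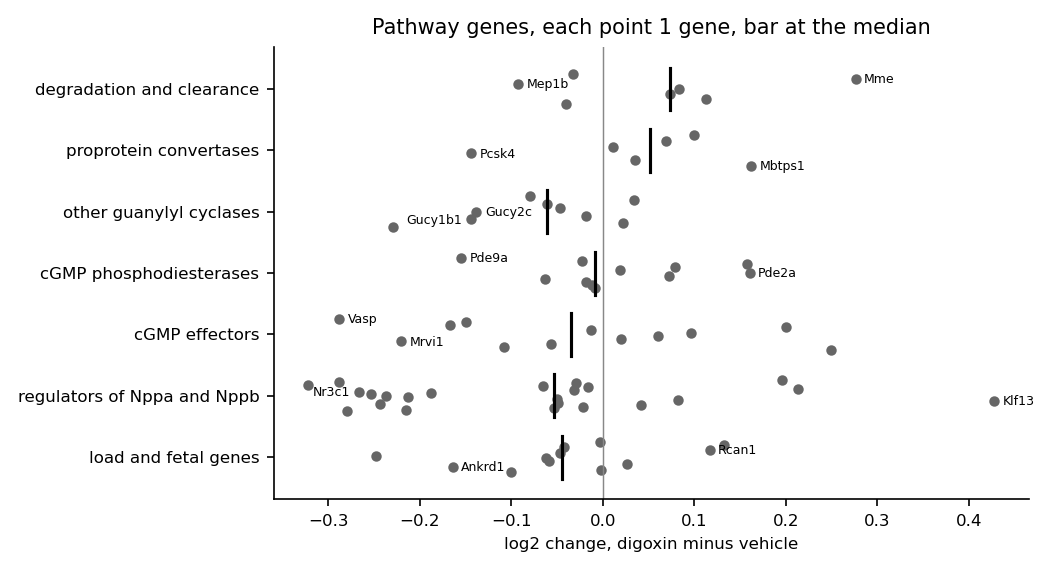
Log2 change, digoxin minus vehicle, of the 80 measured pathway genes, 1 point each, in 7 lists, with a black bar at each list's median and the 2 genes of smallest p in each list named. Medians lie between -0.06 and 0.07, and no gene passed the test.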

How the data were processed

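The series design text says that raw arrays went through GIANT, a Galaxy tool suite whose modules include Robust Multi-array normalization, and the submitters' processing notes name limma. Their versions are not given in the sources used. The authors' deposited values are log2 values relative to a reference per probe set that is not stated, and the log base is taken as that of the method. Their medians per array run from -0.0058 to 0.0087. An exact 0 occurs in 21739 of the 34351 probe sets. Centring cancels in differences between arrays, but it removes levels, so no signal over background and no filter on dim genes could be had.

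The platform annotation gave the gene of each probe set, where 23521 had 1 symbol, 1814 several and 9016 none. Entrez identifiers of 23328 matched the RefSeq table. Values were averaged per gene, which gave 22180 genes. Digoxin and vehicle arrays were compared in R 4.3.3 by limma 3.58.1 (default lmFit and eBayes, two-sided, no covariate), with 6 residual and 2.75 prior degrees of freedom, after the fit was tested on simulated data. Single genes also had an exact permutation test over 56 assignments. The named pathway genes were those past the test or, as none passed, the 2 of smallest p in each list, and the 3 genes most like each member by Pearson correlation over 8 arrays, leaving out predicted genes, small RNAs and genes of smell receptors. The members, lists and alternatives were chosen with earlier results of these data known. Atrial, epicardial, endocardial and macrophage markers are described where they moved with a member. Over the other marker lists Esam of the capillary endothelial list alone passed, and the red blood cell list had no gene with a probe set of its own. Titles number the samples, and nothing else says that they are separate mice, so the p values cover only the spread between samples, which may be technical. The number of arrays limits the precision. No 2 arrays were duplicates, since the lowest SD of the difference between arrays was 0.129.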

Additional observations from a re-analysis of the deposited data

Results flagged for a closer look

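In Npr3, digoxin replicate 4 stood apart from the other digoxin hearts at 0.71, with the next highest at 0.16, a gap of 73.2% of the group's range. Of 10 sets of digoxin values examined in this way, this was the single one to stand out, and chance picks about 1 in 20.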

How the results depend on the processing

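Over the alternatives, 0 of the 8 genes passed in any fit that left out 1 array, and the counts past the test were 1 with array weights (Nppb, log2 change -0.58), 2 without digoxin replicate 4 and vehicle replicate 3 together (Nppb at -0.53 and Npr3 at -0.81), 1 with each probe set on its own (Npr1 by probe set 17407306, -0.29) and 1 at an adjusted p of 0.10 (Furin). The joint fit drops the highest digoxin and the lowest vehicle value of Npr3, so the pass of Npr3 there is no test of a difference. Signs turned for Nppa with the atrial covariate (0.14), for Nppc with array weights (0.0037), without vehicle replicate 3 (0.024) and without it and digoxin replicate 4 (0.041), and for Npr2 in the same fits (-0.019, -0.049 and -0.027). The cause was not tested. With 1 array left out the log2 change lay between -0.95 and -0.28 for Nppa, -0.60 and -0.28 for Nppb, -0.10 and 0.02 for Nppc, -0.07 and -0.04 for Corin, 0.21 and 0.27 for Furin, -0.23 and -0.07 for Npr1, -0.05 and 0.21 for Npr2, and -0.67 and -0.27 for Npr3. Over all genes 302 passed, against 614 with array weights, 500 without digoxin replicate 4 and vehicle replicate 3, 127 with the trended and robust variance model, 118 at an adjusted p of 0.01, 493 at 0.10, and 166 to 374 with 1 array left out. Pathway genes past the test numbered 0, against 1 with quantile normalization or at an adjusted p of 0.10 (Klf13), 2 with array weights (Gucy1a1 and Tbx20), 1 without digoxin replicate 4 and vehicle replicate 3 (Gucy1a1), 3 with the atrial covariate (Klf13, Mbtps1 and Rgs2), and 0 to 1 with 1 array left out, in a count added after the data were seen.

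With the replicate number as a block 12 genes passed and 0 of the 8. Same-numbered arrays of the groups had deviations that correlated at -0.20, -0.02 and 0.02, and not every array correlated best with its own number, so the numbers are taken as names that do not pair the samples. The single-array fits of Npr1 probe set 17407306 were also added after the data were seen.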
